A study of Mus musculus with 17 samples.

Results

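The genes described here are the cytosolic ribosomal protein genes of the mouse and their copies. A row of the count table was a member if its identifier carried a symbol that starts with Rpl or Rps and a digit, or the symbol Rplp0, Rplp1, Rplp2 or Rpsa; kinases named Rps6k were left out. By this rule 254 of the 23461 rows were members. They comprised 77 canonical genes, 168 copies, 8 paralogs and Rps19bp1, which encodes a binding partner of a ribosomal protein and is not itself a ribosomal protein. Of the copies, GENCODE annotates 157 as processed pseudogenes, 7 as transcribed processed pseudogenes and 4 as protein coding.

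RNA was sequenced from FACS-sorted hepatocytes of male mice that were 2 to 3 months old. The 17 libraries form 4 groups: Yap/Taz knockout with CCl4 (n = 3), untreated Yap/Taz knockout (n = 4), wild type with CCl4 (n = 5) and untreated wild type (n = 5). CCl4, a solvent that injures hepatocytes, was given at 1 ug/g in 7 doses spaced 3 days apart, and cells were collected 3 days after the final dose. The labels name neither the promoter or Cre behind the deletion nor the strain, and they do not say that each library came from its own animal, so p-values measure the spread between these libraries. Library totals ran from 11266420 to 24775863 counts. Yap1 was at 0.536 to 8.03 CPM (CPM are reads of a gene scaled to a common library size by edgeR's TMM method) in the 7 knockout libraries and 37.4 to 73.5 CPM in the 10 wild type libraries, and Wwtr1, which encodes TAZ, was at 1.20 to 7.08 CPM in the knockout and 9.85 to 23.4 CPM in wild type. In knockout CCl4 replicate 3, 34.3% of counts were mitochondrially encoded, against 30.7% in untreated wild type replicate 5 and 1.98 to 20.1% in the remaining libraries. That knockout library stood apart by its macrophage markers, which summed to 4932 CPM. They summed to 108 and 301 CPM in replicates 1 and 2 of its group and 0.342 to 117 CPM in the other 14 libraries. All 12 macrophage, 12 of 12 endothelial and 11 of 12 stellate markers were higher in replicate 3 than in both other libraries of the group. No row of the whole table was at 0 in every library, so a listed marker being above 0 somewhere carries no information. The table held 9 of 10 lymphocyte, 5 of 6 neutrophil and 7 of 8 erythroid and platelet markers. Hepatocyte markers summed to 91285 to 146072 CPM across the 17 libraries.

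Ribosomal proteins assemble with ribosomal RNA into the small (Rps) and large (Rpl) subunits of the ribosome, which translates messenger RNA. Their messengers carry a 5′ terminal oligopyrimidine tract, through which mTOR signalling controls their translation. Ribosomal protein messengers have been reverse transcribed and inserted elsewhere in the genome many times, which left intronless copies known as processed pseudogenes. Hepatocytes secrete much of the protein of blood plasma and hold many ribosomes.

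The sequences below show how close the copies are to their parents. Each is a stretch of 90 bases of coding sequence, 5′ to 3′, from GENCODE transcripts of GRCm38. Capitals mark the bases at which the rows of a family differ within the window. The first set is coding positions 580 to 669 of Rps3a1, which encodes the small-subunit protein eS1, with the matching stretch of Rps3a2 (chr14:88123140-88123229, minus strand) and Rps3a3 (chr13:108671182-108671271, plus strand).
Rps3a1: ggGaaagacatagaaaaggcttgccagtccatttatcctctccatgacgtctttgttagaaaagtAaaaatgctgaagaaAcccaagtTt
Rps3a2: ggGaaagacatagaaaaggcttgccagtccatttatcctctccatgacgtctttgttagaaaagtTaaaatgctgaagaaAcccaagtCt
Rps3a3: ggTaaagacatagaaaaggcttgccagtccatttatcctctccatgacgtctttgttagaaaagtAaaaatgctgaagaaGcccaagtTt
The second set is coding positions 87 to 176 of Rpl34, which encodes the large-subunit protein eL34, and the matching stretch of Rpl34-ps1 (chr6:71124696-71124785, plus strand).
Rpl34: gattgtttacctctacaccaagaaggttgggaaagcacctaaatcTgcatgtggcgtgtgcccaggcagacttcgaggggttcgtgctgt
Rpl34-ps1: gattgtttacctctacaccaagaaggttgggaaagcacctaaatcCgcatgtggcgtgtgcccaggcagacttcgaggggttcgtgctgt
The third set is the first 90 coding bases of Rps6, which encodes the small-subunit protein phosphorylated by S6 kinases, and of Rps6-ps4 (chr2:75191733-75191822, minus strand), chosen because that copy had no mismatch with its parent.
Rps6: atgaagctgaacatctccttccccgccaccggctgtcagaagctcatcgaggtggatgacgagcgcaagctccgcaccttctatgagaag
Rps6-ps4: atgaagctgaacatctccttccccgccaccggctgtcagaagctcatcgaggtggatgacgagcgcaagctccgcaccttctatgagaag
Over their whole alignments, Rps3a2 had 4 mismatches with Rps3a1 in 792 bases, Rps3a3 had 9 in 795, Rpl34-ps1 had 2 in 354 with Rpl34, and Rps6-ps4 had 0 in 750 with Rps6. The program that counted reads, and how it treated reads that fit several places, were not stated, so the row to which a read of such a family belongs is uncertain throughout. The copies differed in how much sequence was their own. Of stretches of 50 bases, 34.9% in Rps3a3 and 9.83% in Rps3a2 were found in no other GENCODE gene. In Rpl34-ps1 and Rps6-ps4 the share was 0%.

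All 77 canonical genes passed the filter on low counts, and so did 55 of the 168 copies and 6 of the 8 paralogs, 139 members in all with Rps19bp1. Canonical genes averaged 2.26 to 479 CPM over the 17 libraries, with a median of 94.7 CPM. Rps2, which encodes the small-subunit protein uS5, had the highest mean and Rps13 the lowest. Per kilobase of coding sequence the highest canonical level was that of Rpl41, the gene of the shortest ribosomal protein, at 1464 CPM per kb, followed by Rplp1, a stalk protein, at 806 CPM per kb, and the lowest was that of Rps13 at 4.96 CPM per kb. The stalk genes Rplp0 and Rplp2, which recruit translation factors to the large subunit, averaged 332 CPM and 104 CPM. Rpsa, a small-subunit protein also known as the laminin receptor, averaged 142 CPM.

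Canonical genes with low counts often had a copy with more. Of the 18 canonical genes with a mean under 20 CPM, 10 had a copy above their own level, against 5 of the 59 with a higher mean. Rps6 averaged 7.37 CPM and Rps6-ps4 249.8 CPM. Every group showed this order: Rps6-ps4 had 204, 173 and 374 CPM in knockout CCl4 libraries, 213 to 264 CPM in untreated knockout, 186 to 302 CPM in wild type CCl4 and 251 to 291 CPM in untreated wild type libraries, while Rps6 had 4.17 to 12.7 CPM. Rps13 averaged 2.26 CPM and its copy Rps13-ps2 77.6 CPM, Rpl31 averaged 3.00 CPM and Rpl31-ps8 113 CPM, and Rpl28 averaged 11.8 CPM and Rpl28-ps1 174 CPM. Among the other copies with the highest counts, Rpl10a-ps1 averaged 143 CPM beside 11.6 CPM for Rpl10a, Rps16-ps2 averaged 110.4 CPM beside 52.7 CPM for Rps16, and Rpl17-ps5 averaged 80.7 CPM beside 10.7 CPM for Rpl17. Rpl10-ps3, annotated as protein coding on chromosome 9, averaged 128 CPM, below the 178 CPM of its X-linked parent Rpl10, a protein at the subunit interface.

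**Figure D1:**
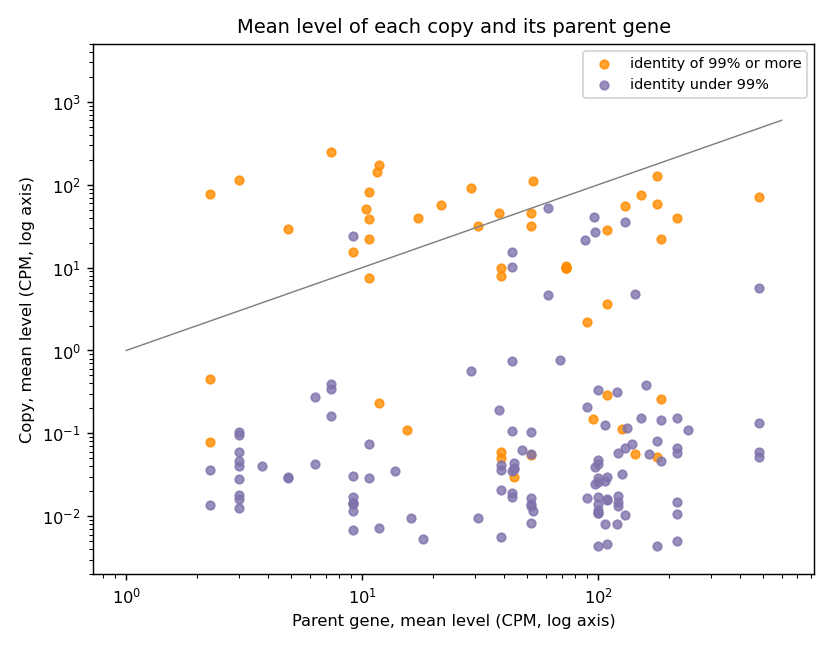
Mean level over 17 libraries of each copy (vertical) against its parent gene (horizontal), both in CPM on log axes; each point is 1 copy and the line marks equal levels. The 18 copies above the line include Rps6-ps4 at 249.8 CPM, and 17 of these 18 were at least 99% identical to their parent.

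In all, 18 copies had a higher mean level than their parent. Of these, 9 were identical to the parent transcript over the aligned bases. More broadly, the 47 copies with a mean of at least 1 CPM had a median identity of 99.7% to their parent, and the 121 below 1 CPM had a median of 96.4% (120 of them with a parent to compare). No copy fell between 0.766 and 2.24 CPM. Over 167 copies the Spearman rho between mean level and identity was 0.76; copies of 1 parent share its sequence, so the points are not independent and no test was made. All 13 copies identical to the parent over the aligned bases had a mean of at least 29.2 CPM, and 12 of these 13 held no stretch of 50 bases of their own, that is, none absent from every other GENCODE gene. An exception was Rpl36a-ps3, which had 51.7 CPM at an identity of 87.5% to Rpl36a.

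**Figure D2:**
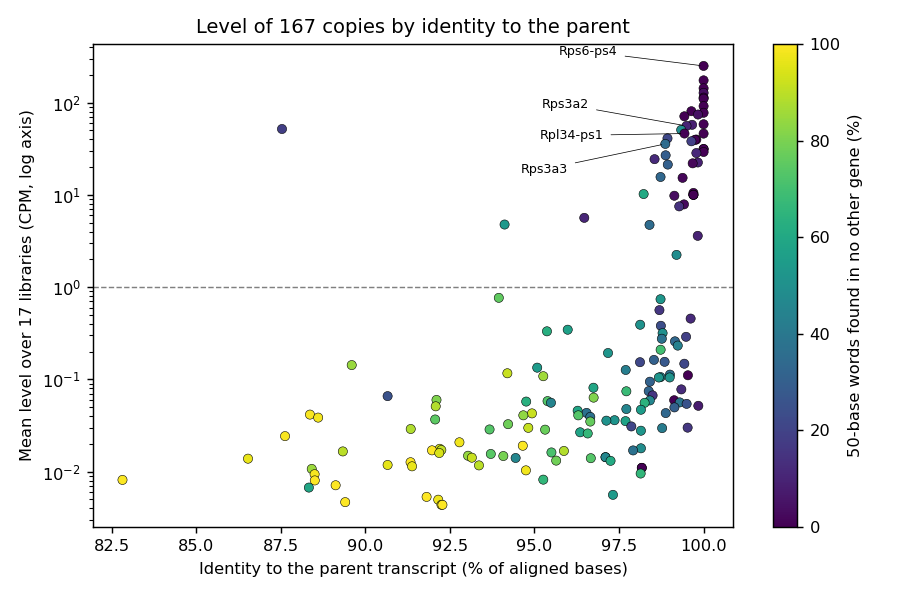
Mean level of 167 copies over the 17 libraries (CPM, log axis) against identity to the parent transcript in percent of aligned bases, coloured by the share of 50-base words found in no other gene. The dashed line is 1 CPM, and the copies above it have a median identity of 99.7%.

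Some rows were at 0 in several libraries and well above it in others of the same group. Rpl10-ps1, identical to Rpl10 over its aligned bases, was at 0 in 4 libraries and reached 133 CPM in others, while the Rpl10 family total ran from 246 to 505 CPM. Rps2-ps6 was at 0 in 8 libraries and reached 43.1 CPM. Rps27, which encodes a zinc-finger protein of the small subunit, was at 0 in 9 libraries and reached 17.3 CPM, and its paralog Rps27rt, identical to it over 341 bases, was detected in all 17 at 36.6 to 158 CPM. Rpl35a-ps3, Rpl35a-ps4 and Rpl35a-ps6 had the same count in every library, 2729 over the 17.

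The knockout was compared with wild type without CCl4, and again after CCl4, to ask which ribosomal protein genes differ when Yap and Taz are missing. Most of the called members were parents and copies that ran in opposite directions: counts of the parent were low in the knockout while counts of its copy were high. Without CCl4, 3 of 77 canonical genes fell (Rps3a1, Rpl34 and Rps2) and none rose, and of 55 tested copies 3 rose (Rps3a2, Rps3a3 and Rps2-ps10) and 1 fell (Rpl15-ps3). That is 7 of 139 tested members, where 0.933% of all 13721 tested genes were called. After CCl4, Rps3a1 and Rpl34 fell and Rps3a2, Rps3a3, Rpl34-ps1 and Rps2-ps10 rose, 6 of 139 members, where 11.8% of all tested genes were called. Without knockout CCl4 replicate 3, 8 of 145 members were called after CCl4, 5.52%, where 2.94% of 14239 tested genes were. The call rule was a Benjamini-Hochberg adjusted p below 0.05 over all tested genes in edgeR's quasi-likelihood test. These 2 comparisons share no library.

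Rps3a1 (ENSMUSG00000028081, chr3:86137940-86142702) had 3.46, 3.32 and 7.40 CPM in knockout CCl4 libraries and 1.36, 3.33, 5.33 and 3.18 CPM in untreated knockout libraries. It had 178, 247, 192, 255 and 188 CPM in wild type CCl4 libraries and 218, 209, 237, 221 and 239 CPM in untreated wild type libraries. The 7 knockout libraries all lay below the 10 wild type libraries, with a wide gap. Its copy Rps3a2 (ENSMUSG00000062611, chr14:88123017-88123808) had 112, 104 and 190.2 CPM in knockout CCl4 and 137, 126, 146 and 134 CPM in untreated knockout libraries. In wild type it had no count in any CCl4 library and 0, 0, 1.26, 0 and 0.578 CPM in untreated libraries. Every knockout library was therefore far above every wild type library, the reverse of the parent. Rps3a3 (ENSMUSG00000059751, chr13:108670603-108671397) had 71.1, 56.4 and 144 CPM in knockout CCl4 and 68.2, 80.7, 95.98 and 87.4 CPM in untreated knockout libraries, against 0 to 0.749 CPM in the 10 wild type libraries. Here too the genotypes did not overlap. The log2 fold change of Rps3a1 was -6.09 ± 0.37 without CCl4 (SE; adjusted p = 1.34e-07) and -5.50 ± 0.41 after CCl4 (adjusted p = 9.69e-07). For Rps3a2 it was 8.35 ± 0.70 without CCl4 (adjusted p = 3.92e-05); after CCl4 the level was at least 4798-fold higher in the knockout, taking a floor of 3 counts over the wild type group (adjusted p = 1.15e-05; counting error only). For Rps3a3 the log2 fold change was 9.002 ± 0.85 without CCl4 (adjusted p = 1.52e-05) and 8.27 ± 0.78 after CCl4 (adjusted p = 1.49e-05).

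Summed over the parent and its copies, the Rps3a family did not pass the test between genotypes. The total was 186, 164 and 342 CPM in knockout CCl4 libraries, 206, 210.3, 247 and 225 CPM in untreated knockout, 178, 247, 193, 255 and 188 CPM in wild type CCl4 and 218, 209.5, 238, 221 and 239.9 CPM in untreated wild type libraries. The 4 groups overlapped. The copies held 97.8 to 99.3% of the family's level in the knockout libraries and 0 to 0.528% in the wild type libraries. With copies added to their parents before the fit, a setting chosen after the data were seen, the log2 fold change was -0.02 ± 0.19 without CCl4 (adjusted p = 0.993) and 0.12 ± 0.20 after it (adjusted p = 0.763).

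**Figure D3:**
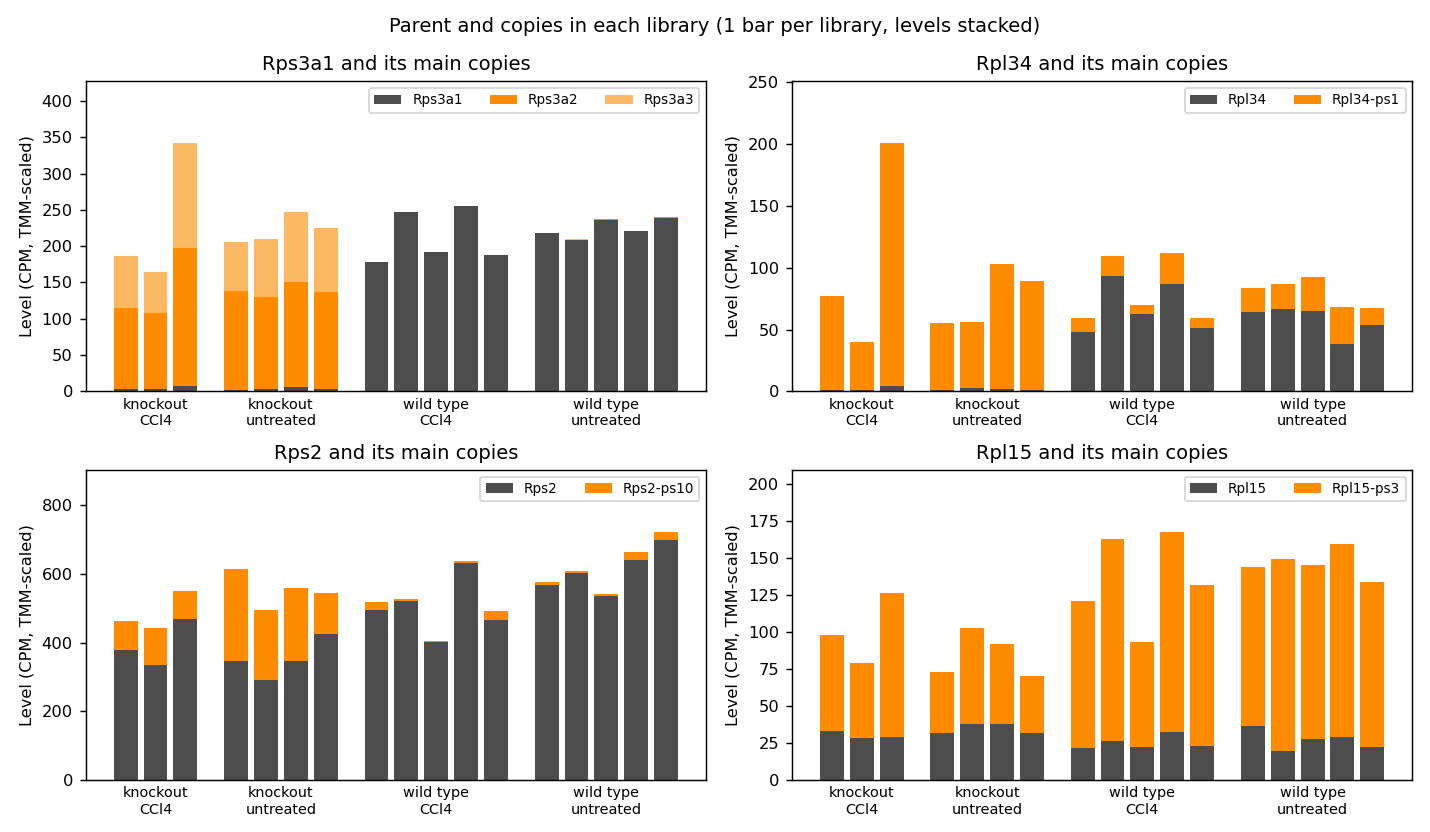
Level in CPM of 4 parent genes and their main copies, stacked, with 1 bar per library in knockout CCl4, knockout untreated, wild type CCl4 and wild type untreated order. Rps3a1 and Rpl34 (dark) hold little of the bars in the knockout and most of them in wild type, with family totals that overlap.

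Rpl34 (ENSMUSG00000062006, chr3:130726831-130730398) showed the same arrangement. It had 1.43, 1.11 and 4.64 CPM in knockout CCl4 and 1.01, 2.74, 1.81 and 1.34 CPM in untreated knockout libraries, against 47.8, 93.3, 62.6, 86.9 and 51.00 CPM in wild type CCl4 and 64.5, 66.6, 64.8, 38.4 and 53.9 CPM in untreated wild type libraries. Rpl34-ps1 (ENSMUSG00000068396, chr6:71124610-71124963) had 75.9, 38.9 and 196 CPM in knockout CCl4 and 54.6, 53.3, 101 and 88.03 CPM in untreated knockout libraries, against 11.6, 16.1, 6.99, 24.7 and 8.12 CPM in wild type CCl4 and 19.04, 19.99, 27.7, 30.1 and 13.6 CPM in untreated wild type libraries. No knockout library overlapped a wild type library for either row. The log2 fold change of Rpl34 was -5.09 ± 0.44 without CCl4 (adjusted p = 4.22e-06) and -4.89 ± 0.49 after it (adjusted p = 2.49e-05). That of Rpl34-ps1 was 1.75 ± 0.43 without CCl4 (adjusted p = 0.0797, not called) and 2.94 ± 0.46 after it (adjusted p = 0.00112). Without CCl4 it was called under 6 of 29 alternatives, DESeq2 among them. The family total gave -0.07 ± 0.36 (adjusted p = 0.989) and 0.37 ± 0.38 (adjusted p = 0.598). Rps3a1 and Rpl34 both lie on chromosome 3, 28.6 and 73.2 Mb from the end of Wwtr1, while their copies lie on chromosomes 14, 13 and 6. Rps27, the other of the 3 canonical genes on chromosome 3, lies 32.6 Mb from Wwtr1 and was not called between genotypes. Its row was at 0 in 9 libraries and averaged 3.75 CPM, so the test could hardly show a change there. Without CCl4, 15 of 652 tested genes on chromosome 3 were called, 2.30%, against 0.933% of all tested genes. After CCl4 it was 85, 13.0%, against 11.8%. Both counts include Rps3a1, Rpl34 and Wwtr1 itself.

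Rps2 and its copy Rps2-ps10 moved in opposite directions as well, with a smaller change in the parent. Rps2 had 346, 291, 345 and 426 CPM in untreated knockout libraries and 567, 602, 536, 641 and 699 CPM in untreated wild type libraries. Rps2-ps10 had 268, 204, 214 and 117 CPM in untreated knockout libraries and 8.16, 4.67, 4.71, 24.00 and 23.1 CPM in untreated wild type libraries. Neither pair of groups overlapped. After CCl4, Rps2 had 379, 334 and 468 CPM in knockout and 494, 521, 401, 629.9 and 467 CPM in wild type libraries, which overlapped, and Rps2-ps10 had 84.9, 109 and 81.1 CPM in knockout and 22.7, 6.49, 4.95, 7.16 and 24.6 CPM in wild type libraries, which did not. Rps2 had a log2 fold change of -0.79 ± 0.16 without CCl4 (adjusted p = 0.0186) and -0.35 ± 0.17 after it (adjusted p = 0.208), and Rps2-ps10 of 3.95 ± 0.59 (adjusted p = 0.00138) and 2.80 ± 0.59 (adjusted p = 0.00628). The family totals gave -0.12 ± 0.14 (adjusted p = 0.905) and -0.07 ± 0.15 (adjusted p = 0.821). The call of Rps2 without CCl4 was lost with library totals alone (log2 -0.63), and without untreated knockout replicate 1, 2 or 3, at adjusted p = 0.0704, 0.075 and 0.0691.

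Rpl15-ps3 (ENSMUSG00000061167, chr9:22185607-22186221) was the copy that fell. It matched Rpl15, which encodes a large-subunit protein, without a mismatch over 615 bases. It had 41.3, 64.5, 53.7 and 38.5 CPM in untreated knockout libraries and 108, 130.2, 118, 130.3 and 112 CPM in untreated wild type libraries, with no overlap. Rpl15 itself had 31.9, 38.1, 38.1 and 31.9 CPM in untreated knockout and 36.5, 19.3, 27.99, 29.2 and 22.2 CPM in untreated wild type libraries, which overlapped. The log2 fold change was -1.27 ± 0.23 for Rpl15-ps3 (adjusted p = 0.00637), 0.37 ± 0.17 for Rpl15 (adjusted p = 0.565) and -0.77 ± 0.18 for the family total (adjusted p = 0.0611). After CCl4, Rpl15-ps3 gave -0.64 ± 0.24 (adjusted p = 0.0979). It lies on chromosome 9, 14.2 Mb from Yap1, where 7 of 732 tested genes, 0.956%, were called without CCl4 and 79, 10.8%, after it. Both counts include Yap1 itself, and the count without CCl4 includes Rpl15-ps3.

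Of the 54 parents with copies, 1 was at an unadjusted p under 0.05 in each genotype comparison once copies were added (edgeR). The share of all genes at that level was not counted for this fit. None of the 54 was called, where 0.856% of 13666 tested genes were called without CCl4 and 11.8% after it. The SD of their log2 fold changes was 0.37 for family totals and 1.11 for the parents alone without CCl4, and 0.37 and 1.14 after CCl4. The SDs of the parents include Rps3a1 and Rpl34, the 2 lowest, at -6.09 and -5.09 without CCl4 and -5.50 and -4.89 after it. For CCl4 against no treatment the SDs of family totals and parents were 0.35 and 0.36 in wild type. In the knockout they were 0.43 and 0.41. Beyond the called genes, canonical log2 fold changes without CCl4 lay between -2.46 for Rps27 (adjusted p = 0.821) and 0.37 ± 0.17 for Rpl15. The median of all 77 was -0.08, and that of all tested genes was -0.01, with 23 canonical genes positive and 54 negative. With library totals alone the medians were 0.06 and 0.14, with 49 canonical genes positive and 28 negative. Rplp0, Rplp1, Rplp2 and Rpsa gave 0.13 ± 0.18, -0.03 ± 0.26, 0.01 ± 0.27 and -0.05 ± 0.23 without CCl4 (adjusted p of at least 0.926). Rps6, Rpl3, Rpl10 and Rpl13a gave -0.0047 ± 0.33, -0.01 ± 0.31, 0.10 ± 0.24 and -0.08 ± 0.22, and none was called.

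In the knockout, the summed TMM-scaled level of the canonical genes after CCl4 turned on 1 library. Their summed level was 6801, 5614 and 12959 CPM in knockout CCl4 libraries, 6552, 7069.8, 8422 and 7733 CPM in untreated knockout, 6517, 8677, 6062, 9565 and 6524 CPM in wild type CCl4 and 7991, 8268, 8077, 8214 and 8506 CPM in untreated wild type libraries. Knockout CCl4 replicate 3, the highest value of all 17, was the library with the high macrophage markers described above, and it was the highest of the 17 libraries in 64 of the 77 canonical genes. Replicate 1 of its group lay below 3 of the 4 untreated knockout libraries and replicate 2 below all 4. That order did not hold without TMM scaling. As a share of all counts, canonical genes held 0.774, 0.729 and 1.11% in knockout CCl4 replicates 1, 2 and 3. They held 0.732, 0.607, 0.793 and 0.731% in untreated knockout libraries, and 1.07% in wild type CCl4 replicate 4. Copies summed to 2040.4, 1681 and 4129 CPM in knockout CCl4 libraries and to 1539 to 2798 CPM in the other 14 libraries, and paralogs to 215 to 451 CPM over all 17. Over all 17 libraries canonical genes held 0.594 to 1.11% of all counts. Copies held 22.4 to 25.1% of member counts in the knockout libraries and 19.3 to 21.4% in the wild type libraries. The part of macrophage RNA, or of mitochondrial counts, in these levels was not tested; in bulk samples a change in cell mix and a change in RNA per cell cannot be told apart.

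**Figure D4:**
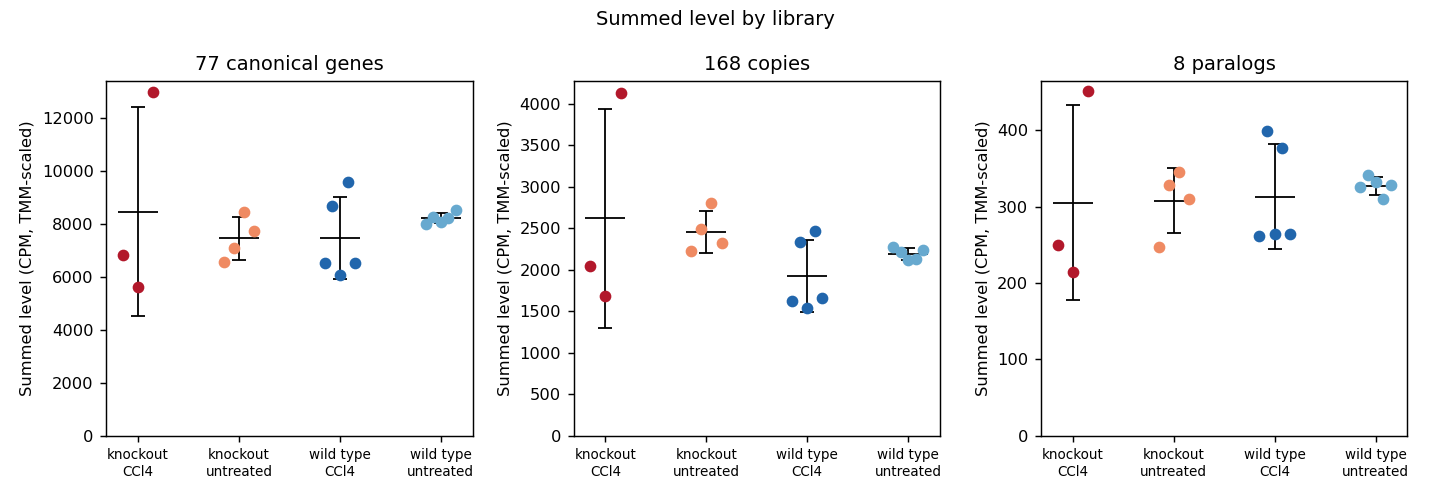
Summed level in CPM of canonical genes, copies and paralogs, with 1 point per library in 4 groups; bars are mean ± SD. Knockout CCl4 replicate 3 is the highest library in each panel, at 12959 CPM for canonical genes.

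Within the knockout, CCl4 was compared with no treatment to ask how injury acts when Yap and Taz are missing. Of 77 canonical genes none was called by edgeR or DESeq2. In edgeR 1 of 55 tested copies rose, where 19.0% of all tested genes were called. At an unadjusted p under 0.05 in edgeR were 1 canonical gene and 4151 of 13721 tested genes. The canonical median was 0.24 log2, against 0.01 for all tested genes, with 60 genes positive and 17 negative. Without knockout CCl4 replicate 3 the canonical median was -0.29, 6 were positive and 71 negative, and 1 gene was called, Rpl35a, a large-subunit gene picked out after its value was seen (log2 -0.69, adjusted p = 0.0341); the copy called there was Rps25-ps1, also picked out so (log2 -1.02, adjusted p = 0.0129). Of all tested genes 11.7% were called without replicate 3. That fit used TMM scaling, and no fit without replicate 3 used library totals alone. As a share of all counts, canonical genes held 0.774 and 0.729% in replicates 1 and 2, inside the 0.607 to 0.793% of untreated knockout libraries. Without knockout CCl4 replicate 2, 2 canonical genes and 3 copies were called, and without replicate 1, 2 copies. The share of all tested genes called without replicate 1 or 2 was not counted, so these counts cannot be set beside it. Rps12-ps3, annotated as protein coding and identical over 450 bases to Rps12, was the copy called. It had 34.7, 17.8 and 106 CPM in knockout CCl4 libraries and 13.2, 17.01, 36.2 and 13.6 CPM in untreated knockout libraries, which overlapped. Its log2 fold change was 1.39 ± 0.46 (adjusted p = 0.0446) and 0.39 without replicate 3 (adjusted p = 0.582), and 18 of 29 alternatives did not call it. The largest canonical log2 fold change was that of Rps27, 2.66 ± 2.06 (adjusted p = 0.437), whose row was at 0 in 9 libraries, and the lowest was that of Rpl15, -0.20 ± 0.20 (adjusted p = 0.573).

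In wild type, CCl4 against no treatment called no member in edgeR, where 0.853% of all tested genes were called. At an unadjusted p under 0.05 were 7 of 139 members and 2023 of 13721 tested genes. Of the 77 canonical genes 2 were at an unadjusted p under 0.05 in edgeR. DESeq2 called 0 canonical genes and 2 tested copies, where it called 494 of 13721 tested genes. The canonical log2 fold changes lay between -2.19 ± 1.74 for Rps27 (adjusted p = 0.615) and 0.33 ± 0.32 for Rpl5 (adjusted p = 0.698), the gene of a large-subunit protein that carries the 5S ribosomal RNA. The canonical median was -0.10 log2, against -0.01 for all tested genes, with 14 positive and 63 negative. With library totals alone in place of TMM scaling the medians were 0.28 for canonical genes and 0.38 for all tested genes, so the sign of the canonical median changed with the scaling while it stayed below that of all genes. Wild type CCl4 replicates 2 and 4 had summed canonical levels of 8677 and 9565 CPM, above all 5 untreated libraries, and the other 3 had 6062 to 6524 CPM, below all of them. As a share of all counts, without TMM scaling, those 3 held 0.686 to 0.752%. That lay inside the 0.594 to 0.842% of the untreated libraries. Replicates 2 and 4 held 1.00 and 1.07%. Those 2 libraries also had 2.96 and 1.98% of counts mitochondrially encoded, against 8.63 to 10.01% in the other 3 and 5.32 to 30.7% in the untreated libraries. Their stellate markers summed to 70.9 and 76.2 CPM, against 18.9 to 30.4 CPM in the other 3. Their endothelial markers summed to 72.7 and 189 CPM, against 42.6 to 102 CPM, and their macrophage markers to 51.4 and 117 CPM, against 11.8 to 42.9 CPM. The part of these differences in the result was not tested.

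After CCl4, knockout against wild type gave a canonical median of 0.28 log2, with 67 positive and 10 negative; without knockout CCl4 replicate 3 it was -0.23, with 11 positive and 66 negative, and 3 genes were called in place of 2, the third being Rpl35a (log2 -0.79, adjusted p = 0.0386). Calls over all genes went down with it, to 418 without that library, against 1622 with it. Without knockout CCl4 replicate 2, 5 canonical genes were called, and the share of all tested genes called was not counted. Small-subunit and large-subunit genes gave medians of 0.35 and 0.22, which were -0.23 and -0.22 without replicate 3. Without replicate 3, Rps3a1 and Rpl34 gave -5.96 ± 0.43 and -5.76 ± 0.46, Rpl34-ps1 gave 2.09 ± 0.42 and Rps2-ps10 2.88 ± 0.65, and all 4 were still called. The interaction of CCl4 and genotype, tested in the same fit, called no canonical gene and no copy, where 1.09% of all tested genes were called (150). Without knockout CCl4 replicate 3, 11 genes were called, 0.0773%. In edgeR with all 17 libraries, 0 canonical genes, 4 copies and 2343 of 13721 tested genes were at an unadjusted p under 0.05. DESeq2 called 0 canonical genes and 1 copy, where it called 783 of 13721 tested genes. The interaction's canonical median in edgeR was 0.33, and -0.14 without knockout CCl4 replicate 3. Under scaling by library totals it was 0.04, against -0.16 for all tested genes, and the median between genotypes after CCl4 was 0.12, against -0.01 for all tested genes. The highest canonical log2 fold change between genotypes after CCl4 was that of Rps27, 2.396 ± 1.89 (adjusted p = 0.469).

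**Figure D5:**
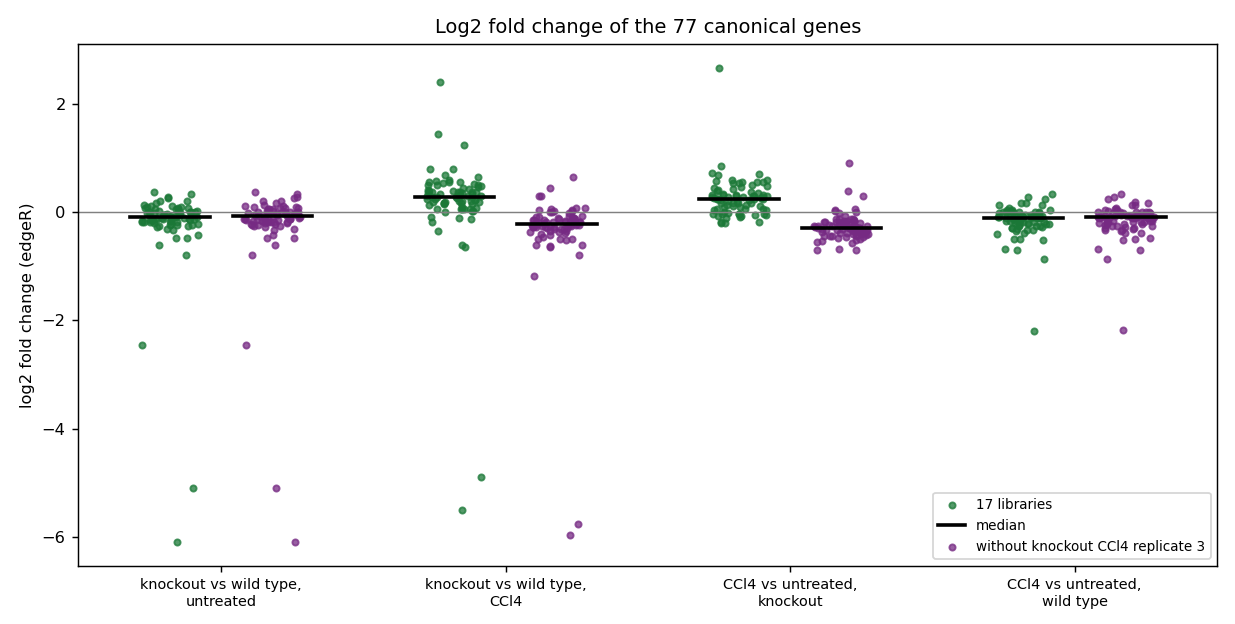
Log2 fold change of the 77 canonical genes in 4 comparisons, with 17 libraries (green) and without knockout CCl4 replicate 3 (purple); each point is 1 gene and black lines are medians. The lowest points in both genotype comparisons are Rps3a1 and Rpl34, and the medians of both comparisons that use knockout CCl4 libraries change sign without replicate 3.

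None of the 6 tested paralogs was called in any comparison with all 17 libraries, where 0.853 to 19.0% of all tested genes were called. Rps27l, a p53 target, came nearest between genotypes. It had 58.1, 42.6 and 86.2 CPM in knockout CCl4 and 50.6, 69.8, 73.4 and 59.9 CPM in untreated knockout libraries, against 80.97, 116, 80.8, 100.2 and 80.2 CPM in wild type CCl4 and 94.5, 93.1, 90.4, 102 and 93.9 CPM in untreated wild type libraries. The untreated groups did not overlap, and the CCl4 groups overlapped through knockout replicate 3. The log2 fold change was -0.58 ± 0.19 without CCl4 (adjusted p = 0.222) and -0.56 ± 0.20 after it (adjusted p = 0.0863), and -0.86 ± 0.19 after CCl4 without knockout replicate 3 (adjusted p = 0.0241, called). Rps4l, a relative of X-linked Rps4x, had 7.29, 7.57 and 10.2 CPM in knockout CCl4 and 10.5, 21.5, 13.5 and 15.7 CPM in untreated knockout libraries, a log2 fold change of -0.88 ± 0.35 (adjusted p = 0.0969). Rps27rt, Rpl36al, Rpl7l1 and Rpl22l1 averaged 76.0, 74.8, 44.8 and 25.5 CPM, with log2 fold changes between -0.22 and 0.31 in the 4 comparisons of groups. Rpl3l and Rpl39l, known from striated muscle and testis, had 22 and 4 counts over all 17 libraries. Rps19bp1 averaged 9.56 CPM and was not called in any comparison, with log2 fold changes of 0.10 ± 0.22 between untreated genotypes and 0.30 ± 0.24 after CCl4.

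Other genes of the ribosome and of translation were looked at from lists chosen with earlier results of these data known. Fau, which encodes a ribosomal protein fused to a ubiquitin-like sequence, and Rack1, a scaffold of the small subunit, were not called in any comparison. Rack1 averaged 254 ± 121 CPM in knockout CCl4, 202 ± 17.9 in untreated knockout, 206 ± 39.5 in wild type CCl4 and 222 ± 6.44 in untreated wild type libraries (SD). Of 18 translation factors and other genes with terminal oligopyrimidine messengers, 1 rose in the untreated knockout against wild type, the histone chaperone Nap1l1 (log2 0.73 ± 0.15, adjusted p = 0.0186). In that comparison 0.933% of all tested genes were called. Within the knockout, where CCl4 changed 19.0% of all tested genes, it raised 2 of these 18, the intermediate filament gene Vim and the splicing factor Hnrnpa1 (log2 0.97 ± 0.21, adjusted p = 0.00381), and lowered 1, the initiation factor Eif4b (log2 -0.71 ± 0.16, adjusted p = 0.00445). Vim, which macrophages and stellate cells express, had 163 CPM in knockout CCl4 replicate 3, against 6.93 and 14.5 CPM in the other 2 libraries of the group and 0.0833 to 5.07 CPM in the other 14. Of 12 regulators of these messengers 1 rose, the mTOR complex subunit Mlst8 (log2 0.77 ± 0.21, adjusted p = 0.0140), and of 12 RNA polymerase I genes 1 rose, Taf1c (log2 1.86 ± 0.53, adjusted p = 0.0195); neither list had a call without replicate 3, where 11.7% of all tested genes were called. Of 30 ribosome assembly genes 1 fell, Nop10 (log2 -0.77 ± 0.26, adjusted p = 0.0492). After CCl4, knockout against wild type called 3 of the 18 translation genes and 1 of the 30 assembly genes, where 11.8% of all tested genes were called. Without knockout CCl4 replicate 3 it called none of either, where 2.94% of all tested genes were called.

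Mitochondrial ribosomal proteins are a separate set, encoded in the nucleus and built into the ribosomes of mitochondria. Of 80 tested, 7 fell and none rose with CCl4 in the knockout, and 5 fell without knockout CCl4 replicate 3; these counts stand beside 19.0% of all tested genes called, and 11.7% without that library. The list's median was -0.29, and -0.34 without it. Mrps5 fell by 0.80 ± 0.18 on the log2 scale (adjusted p = 0.00540), Mrpl38 by 0.83 ± 0.19 (adjusted p = 0.00624) and Mrps31 by 0.95 ± 0.22 (adjusted p = 0.00697). In wild type none of the 80 was called with CCl4, where 0.853% of all tested genes were called, and the list's median was -0.20. At an unadjusted p under 0.05 were 7 of the 80 and 2023 of 13721 tested genes. Between genotypes after CCl4, where 11.8% of all tested genes were called, 1 rose and 2 fell. Without knockout CCl4 replicate 3, where 2.94% were called, 1 rose and none fell. The row that rose, the copy Mrpl48-ps, had 1.39 to 2.44 CPM in knockout CCl4 libraries and 0 in all wild type libraries, while Mrpl48 had 14.5 to 17.9 CPM in knockout CCl4 and 18.8 to 27.6 CPM in wild type CCl4 libraries. Of 12 p53 targets, which respond to ribosome assembly stress among other signals, 4 rose with CCl4 in the knockout, where 19.0% of all tested genes were called, and 1 in wild type, where 0.853% were. Phlda3 rose by 4.57 ± 0.64 log2 in the knockout (adjusted p = 0.000392), and Eda2r rose by 2.51 ± 0.58 in the knockout (adjusted p = 0.00591) and 2.33 ± 0.49 in wild type (adjusted p = 0.0326). Whether these effects differ between genotypes was tested for each gene and none of the 12 was called, where 1.09% of all tested genes were called. At an unadjusted p under 0.05 were 4 of the 12 and 2343 of 13721 tested genes. After CCl4, 2 of the 12 rose in the knockout against wild type, and none without knockout CCl4 replicate 3; of all tested genes 11.8% and 2.94% were called in these fits.

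Promoters were read from RefSeq windows on GRCm38.p6, 250 bases before to 50 after each start, to describe the sequence in front of the canonical genes. An entry was found for 57 of 77 canonical genes, 7 of 8 paralogs and 1 of 168 copies. The motif CGGAAG, the core of sites for ETS-family factors such as GABP, was searched on both strands (as CGGAAG or CTTCCG). It was present in 40 of the 57 canonical windows, 70.2%, and in 17.2% of all 27025 windows. The motif TATAAA (or TTTATA) was present in 8.77% of canonical windows and 14.2% of all windows. A match is a description of the letters. The last 60 bases before the start of Rpl34 (chr3:130730399-130730458, minus strand) are shown with the motif in capitals, because its counts differed between genotypes and its RefSeq start is that of the GENCODE gene.
Rpl34 promoter: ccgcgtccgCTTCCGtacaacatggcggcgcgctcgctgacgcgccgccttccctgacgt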

How the data were processed

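The authors deposited 1 table of raw read counts per gene for 17 libraries, whole numbers with no normalization. Per the submitters' processing notes the tools were STAR 2.4.1d with mm10, FastQC, DESeq2, edgeR and limma, with no role given for each. Per the labels' protocols extraction used Qiagen MicroRNEasy and library preparation NEBNext Ultra II RNA. The counting tool, its strand setting, the annotation and the read length were not stated. Reads of genes that overlap, or that match copies, can therefore have been split, dropped or given to another row.

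Symbols were matched to 22914 of 23461 identifiers. The members and the lists of other genes were chosen with earlier results of these data known. Genes passing filterByExpr (minimum count 10, minimum total 15) were fitted in edgeR 4.0.16 (R 4.3.3) by the quasi-likelihood test with TMM scaling and 1 mean per group over all 17 libraries, and p-values were adjusted by Benjamini-Hochberg over 13721 genes. The SE is the log2 fold change divided by the square root of F. Levels are CPM on TMM-scaled library sizes. Each copy was aligned to its parent transcript with Biopython 1.88 (match 1, mismatch -2, gap opening -4, extension -1), and the share of words of 50 bases found in no other gene was counted in GENCODE M21 transcripts. Genes named were the paralogs, Fau, Rack1, fixed canonical examples, the 8 copies with the highest mean, called members and the extremes of each comparison, and up to 3 genes per other list; the other members were named after their values were seen. Alternatives were DESeq2 1.42.0, limma 3.58.1 with voom, other scalings and filters, a replicate block, removal of libraries or mitochondrially encoded genes, and copies summed into parents. The fits were tested on simulated data. No 2 libraries agreed within sampling noise; the lowest chi-square per gene between replicates was 23.4. The floor of 3 counts covers counting error only.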

Additional observations from a re-analysis of the deposited data

Results flagged for a closer look

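For 93 sets of values, each 1 gene in 1 group of 4 or 5 libraries, the gap between an extreme library and its nearest neighbour was set against the range of the group. Of these, 3 passed Dixon's limit, which chance passes in about 1 in 20 groups. Rps12-ps3 had 36.2 CPM in untreated knockout replicate 3, against 13.2 to 17.01 CPM in the other 3 libraries of the group. Rps3a3 had 0.666 CPM in untreated wild type replicate 2, against 0 to 0.144 CPM in the other 4. Rplp1 had 298 CPM in untreated wild type replicate 4, against 259 to 270.4 CPM in the other 4.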

How the results depend on the processing

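Each result for a single gene was counted once per alternative. Of these pairs of result and alternative, 576 kept their direction and their side of the threshold, 26 were no longer called, 11 became called and 2 reversed. The reversals were Rps3a1 (log2 0.12) and Rpl34 (log2 0.37) after CCl4, knockout against wild type, with copies summed into their parents, a setting added after the data were seen; by construction it adds the copies' counts. Without the 2 libraries over 30% mitochondrial, the canonical median was -0.29 for CCl4 in the knockout, with 1 gene called, -0.23 for knockout against wild type after CCl4 and -0.13 for the interaction. Leaving out 1 library at a time gave -0.29 to 0.47, -0.23 to 0.49 and -0.14 to 0.57 for these medians, the low ends without knockout CCl4 replicate 3 and the high ends without replicate 2. The canonical count ran from 0 to 2 for CCl4 in the knockout and 2 to 5 between genotypes after CCl4, and the copy count from 0 to 3 for CCl4 in the knockout. That copy count was 0 with no filter, with only the groups compared and without mitochondrially encoded genes. For most of these settings the share of all tested genes called was not counted. With library totals alone, CCl4 in wild type called 1 canonical gene and 1 copy, where 650 of 13721 tested genes were called. The canonical median was 0.28. DESeq2 called 2 copies for CCl4 in wild type, where it called 494 of 13721 tested genes. In the interaction it called 1 copy, where it called 783 of them. The cause of these changes was not tested.

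The labels say that replicate numbers pair no samples. Libraries with the same number had correlations of deviations of -0.26 to 0.20 over 22 pairs, and 1 of 17 libraries correlated best with its own number. With the replicate block, CCl4 in the knockout called 0 copies, and Rps2 without CCl4 gave log2 -0.79 (edgeR, adjusted p = 0.0524).

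Each group holds 3 to 5 libraries. Reads of near-identical rows cannot be assigned from counts alone, and Rps27, at 0 in 9 libraries, had SEs of 1.74 to 2.06 in the 4 comparisons of groups.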
